A study of Mus musculus with 4 samples.

Results

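The immediate early genes examined were Fos, Fosb, Jun, Junb, Egr1, Egr2, Egr3, Atf3, Ier2, and Nr4a1. These 10 genes were chosen by name from the 22252 gene names in the count files of mouse gastrocnemius muscle, and all 10 were found. RNA-seq was performed on gastrocnemius muscle of 7-week-old male C57BL/6J mice in 4 groups, to learn how obesity and the loss of the glucocorticoid receptor (GR, encoded by Nr3c1) from muscle alter the muscle transcriptome. All mice carried floxed Nr3c1 alleles on both chromosomes. Lean GRf/f mice had no Cre and intact leptin genes (Lep), and lean GRmKO mice had in addition a Cre transgene driven by the Acta1 promoter, which deletes exon 3 of Nr3c1 in myofibers but not in the other cells of the muscle. The ob/ob GRf/f and ob/ob GRmKO mice had the same Cre genotypes and were homozygous for the ob mutation of Lep, which leaves them without leptin and makes them obese. No treatment was given. Each group was sequenced as 1 library made from the mixed RNA of 3 mice. Each comparison is therefore 1 library against another, with no test and no replicate check. The intervals given are 95% intervals that cover counting error only, Wilson intervals for levels and exact binomial (Clopper-Pearson) intervals for ratios.

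Immediate early genes are transcribed within minutes of a stimulus from factors that are already in the cell, without new protein synthesis. Growth factors, calcium, cAMP, and mechanical load reach them through MAP kinases, SRF with its ELK partners, and CREB. Their mRNAs are short lived, and feedback from the phosphatases and corepressors they help to induce shuts them off again. In skeletal muscle, they are known for their response to contraction, stretch, and injury. Most members encode transcription factors. Fos and Jun proteins pair to form AP-1, Atf3 is a bZIP factor of the same superfamily that is induced by stress, the Egr proteins are zinc finger factors, and Nr4a1 (also called Nur77) is an orphan nuclear receptor.

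The libraries held between 19897754 and 20959781 expected counts, so that 1 count equals 0.0477 to 0.0503 CPM (a gene's counts scaled by the total of its library). A count of 0 allows a level of up to 3 counts, or 0.145 CPM in lean GRf/f muscle. Mitochondrially encoded genes took 19.6% to 20.2% of the counts. Nr3c1, the targeted gene, was at 125 CPM in lean GRf/f, 67.0 CPM in lean GRmKO, 102 CPM in ob/ob GRf/f, and 39.1 CPM in ob/ob GRmKO muscle, lower in both GRmKO libraries. Myofiber markers such as Acta1 and Ckm summed to between 124672 and 148129 CPM, and none of the 8 was at 0 in any library. A gene was called higher or lower when its CPM differed at least 2-fold. The members were set beside the 12260 genes that had counts above 0 in all 4 libraries and a mean of at least 1 CPM. Of the 10 members, 9 belong to this set, all but Fosb.

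Promoters of 7 of the 10 members, all but Egr1, Egr3, and Ier2, were matched by symbol in RefSeq (GRCm38.p6), as windows of 250 bases before and 50 bases after a transcription start. Those of Fos, Fosb, Junb, Atf3, Egr2, and Nr4a1 are shown from 150 bases before to 50 bases after the start, because each pattern described below has at least 1 of these genes. Each is written 5′ to 3′ on the strand of its gene. Fos lies on the plus strand of chromosome 12 (chr12:85473740-85473939), Fosb on the minus strand of chromosome 7 (chr7:19309996-19310195), and Junb on the minus strand of chromosome 8 (chr8:84978699-84978898). Atf3 lies on the minus strand of chromosome 1 (chr1:191183284-191183483). Egr2 lies on the plus strand of chromosome 10 (chr10:67537719-67537918) and Nr4a1 on the plus strand of chromosome 15 (chr15:101266696-101266895). Capitals mark the letters TGACG or their reverse complement, the core of a cAMP response element, and in Egr2 also a CArG box, the element bound by SRF.
Fos: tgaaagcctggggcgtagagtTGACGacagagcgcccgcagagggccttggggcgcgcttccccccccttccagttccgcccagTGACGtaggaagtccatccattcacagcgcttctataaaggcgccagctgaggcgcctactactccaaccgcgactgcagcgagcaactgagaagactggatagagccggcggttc
Fosb: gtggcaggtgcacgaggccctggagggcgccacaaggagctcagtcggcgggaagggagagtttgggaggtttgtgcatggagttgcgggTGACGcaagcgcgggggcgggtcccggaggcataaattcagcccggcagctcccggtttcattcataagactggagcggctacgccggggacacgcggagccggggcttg
Junb: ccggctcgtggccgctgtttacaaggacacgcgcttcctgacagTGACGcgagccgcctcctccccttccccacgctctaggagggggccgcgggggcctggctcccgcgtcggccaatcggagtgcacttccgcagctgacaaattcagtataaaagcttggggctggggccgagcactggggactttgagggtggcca
Atf3: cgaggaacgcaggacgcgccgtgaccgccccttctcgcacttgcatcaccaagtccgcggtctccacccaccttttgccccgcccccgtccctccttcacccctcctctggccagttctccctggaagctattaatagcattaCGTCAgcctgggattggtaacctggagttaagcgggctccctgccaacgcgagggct
Egr2: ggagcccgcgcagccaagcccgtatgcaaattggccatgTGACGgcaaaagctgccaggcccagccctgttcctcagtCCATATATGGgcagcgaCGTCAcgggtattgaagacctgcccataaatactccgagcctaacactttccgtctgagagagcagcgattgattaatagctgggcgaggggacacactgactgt
Nr4a1: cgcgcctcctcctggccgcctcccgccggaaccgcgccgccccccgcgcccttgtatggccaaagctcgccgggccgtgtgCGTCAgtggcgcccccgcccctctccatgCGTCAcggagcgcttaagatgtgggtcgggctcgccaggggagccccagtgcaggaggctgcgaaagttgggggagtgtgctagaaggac
TGACG, searched on both strands and chosen after the sequences had been seen, was found in 8 of the 11 windows of 300 bases that the 7 members have, and in 20.8% of all 32851 windows. Egr2 has 5 of the 11, and 3 of its 5 held TGACG. These 3 windows overlap and hold the same sites, so they are not separate finds. Nr4a1 held 4 copies, which 0.231% of all windows reached or passed, Fos and the window of Egr2 shown held 2 each, and Fosb, Junb, and Atf3 held 1 each. The whole element TGACGTCA, of which TGACG is a part, was in no member window and in 1.79% of all. The CArG box was in 4 of the 5 windows of Egr2, in no window of the other members, and in 1.63% of all windows. In the 3 overlapping windows of Egr2 it is the same box. TATAAA was in the windows of Fos and Junb, and in 13.6% of all. The AP-1 site TGAGTCA (5.20% of all windows), the Egr site GCGTGGGCG (0.612%), the Nr4a site AAAGGTCA (1.51%), and the GR element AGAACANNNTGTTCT (0.00913%) were in no member window. These are matches of letters in short windows and not binding sites.

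Fos, Fosb, Egr1, and Egr3 shared a pattern in which the lean GRf/f library stood below the other 3. Each was at least 2-fold lower in lean GRf/f muscle than in every other library, and so were 0.571% of the 12260 genes (70 genes), a set that holds 3 of these 4, since Fosb is not in it. By contrast, Nr4a1 was highest in lean GRf/f muscle, Atf3 was highest in ob/ob GRf/f muscle, and Egr2 was nearly level. The comparison of ob/ob with lean GRf/f muscle and that of lean GRmKO with lean GRf/f muscle share this library, so the calls below are not independent of each other. What is particular to lean GRf/f mice and what is particular to this 1 pool of 3 mice cannot be told apart. In whole muscle, fewer cells of a type and less RNA per cell cannot be told apart either.

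**Figure D1:**
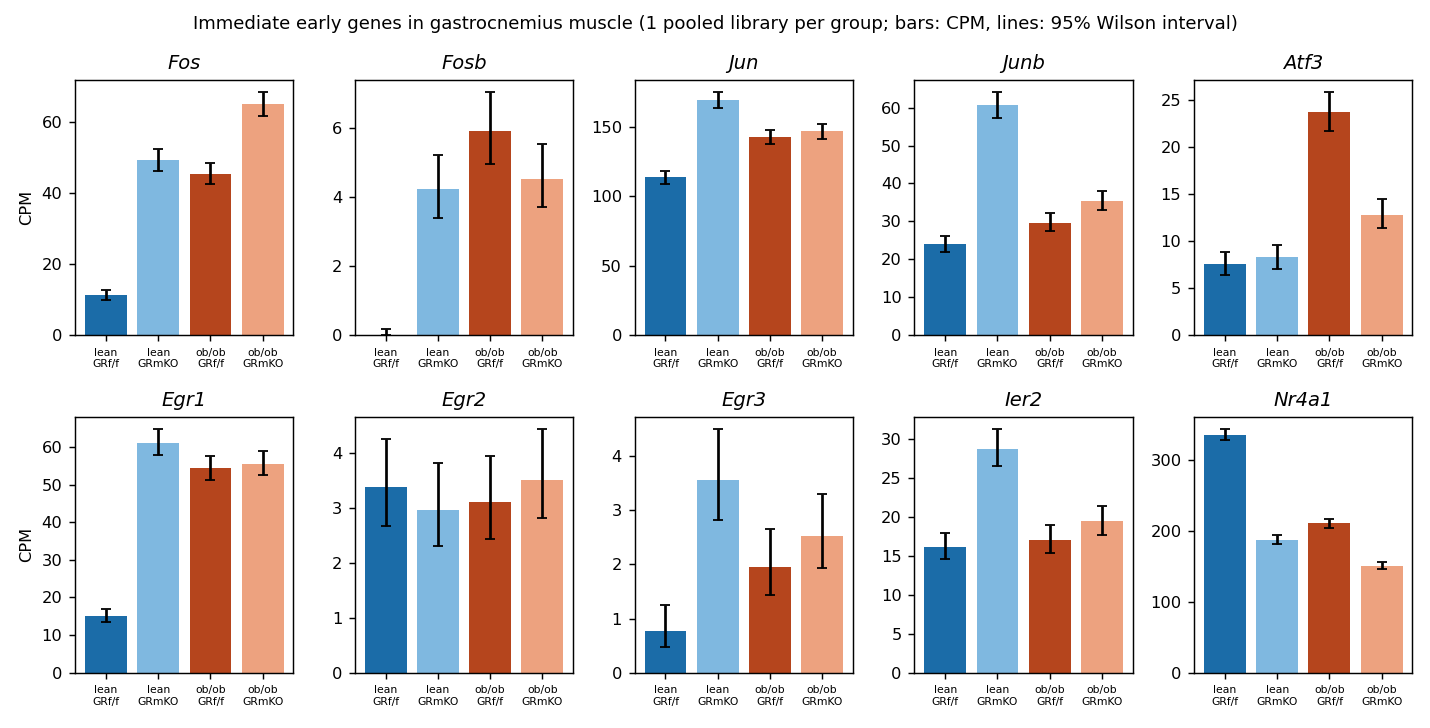
Levels of the 10 immediate early genes in CPM (vertical axes, each starting at 0 with its own scale) in the 4 gastrocnemius libraries. Bars are single pooled libraries and lines 95% Wilson intervals; lean GRf/f is the lowest bar for 8 genes, the highest for Nr4a1, and at 0 for Fosb.

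Fos (ENSMUSG00000021250.13) lies on chromosome 12 of GRCm38 from 85473890 to 85477273 and has 4 exons. It encodes c-Fos, the AP-1 subunit that is usually the first to appear after a stimulus. Fos was at 11.3 CPM in lean GRf/f (95% interval, 9.92–12.8), 49.3 CPM in lean GRmKO (46.4–52.5), 45.4 CPM in ob/ob GRf/f (42.6–48.4), and 65.0 CPM in ob/ob GRmKO muscle (61.7–68.6). The first of these stands apart, the intervals of lean GRmKO and ob/ob GRf/f overlap, and ob/ob GRmKO is the highest. Among GRf/f mice, Fos was 4.03-fold higher in ob/ob than in lean muscle, a log2 ratio of 2.01 (1.80 to 2.22). Among lean mice, it was 4.38-fold higher in GRmKO than in GRf/f muscle, a log2 ratio of 2.13 (1.92 to 2.34). Where the lean GRf/f library was not involved, the log2 ratios were 0.40 for ob/ob against lean GRmKO and 0.52 for GRmKO against GRf/f in ob/ob muscle, both under the 2-fold threshold.

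Fosb (ENSMUSG00000003545.3; chromosome 7, 19302696 to 19310051) encodes FosB and, by splicing, the stable ΔFosB, which the counts per gene do not separate. Fosb had 0 counts in lean GRf/f muscle. It was at 4.23 CPM in lean GRmKO, 5.91 CPM in ob/ob GRf/f, and 4.52 CPM in ob/ob GRmKO muscle, from 84.1, 124, and 94.6 counts. The 3 levels above 0 differed by at most 1.40-fold, with overlapping intervals. Measured against the floor of 3 counts, Fosb was at least 29.2-fold higher in lean GRmKO and at least 40.9-fold higher in ob/ob GRf/f than in lean GRf/f muscle. The 95% counting intervals of these ratios begin at 23.2-fold and 32.8-fold. With 0.5 CPM added to each value, the log2 ratios were 3.24 and 3.68. Its log2 ratio was 0.10 (-0.34 to 0.54) for ob/ob against lean GRmKO and -0.39 (-0.78 to 0.01) for GRmKO against GRf/f in ob/ob muscle.

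Jun (ENSMUSG00000052684.4; chromosome 4, 95049034 to 95052222) is a gene of 1 exon that encodes c-Jun, the main partner of Fos proteins. Its transcript shares 232 bases with exons of an antisense gene, Junos, and the strandedness of the libraries is not given in the sources used here. Jun was at 114 CPM in lean GRf/f, 169 CPM in lean GRmKO, 143 CPM in ob/ob GRf/f, and 147 CPM in ob/ob GRmKO muscle. Lean GRf/f was again the lowest, but the highest and lowest levels differed by only 1.49-fold, and Jun was not called in any comparison. Junb (ENSMUSG00000052837.6; chromosome 8, 84974484 to 84978718) encodes JunB, an AP-1 subunit that also maintains muscle mass. Junb was at 24.0 CPM in lean GRf/f, 60.6 CPM in lean GRmKO, 29.7 CPM in ob/ob GRf/f, and 35.4 CPM in ob/ob GRmKO muscle. Here the lean GRmKO library stands above the other 3. Junb rose 2.53-fold from lean GRf/f to lean GRmKO muscle, a log2 ratio of 1.34 (1.19 to 1.49). The log2 ratio of ob/ob against lean muscle was 0.31 in GRf/f and -0.77 in GRmKO mice, both under the threshold.

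Atf3 (ENSMUSG00000026628.13; chromosome 1, 191170296 to 191218039) encodes a stress-induced factor that pairs with Jun proteins. Atf3 was at 7.52 CPM in lean GRf/f (6.43–8.79), 8.26 CPM in lean GRmKO (7.07–9.60), 23.7 CPM in ob/ob GRf/f (21.7–25.8), and 12.8 CPM in ob/ob GRmKO muscle (11.3–14.4). The lean libraries overlap, and both ob/ob libraries lie above them. In GRf/f mice, Atf3 rose 3.14-fold in ob/ob muscle, a log2 ratio of 1.65 (1.39 to 1.92). In GRmKO mice the log2 ratio was 0.63 (0.35 to 0.92), and within ob/ob muscle Atf3 was 0.540 times as high in GRmKO as in GRf/f mice, neither of which reached 2-fold. Atf3 is thus the member called with obesity but not with the genotype in lean muscle, where its log2 ratio was 0.13 (-0.19 to 0.46).

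Egr1 (ENSMUSG00000038418.7, on chromosome 18) encodes a zinc finger factor induced through SRF and ELK proteins. Egr1 was at 15.1 CPM in lean GRf/f (13.5–16.8), 61.2 CPM in lean GRmKO (57.9–64.7), 54.4 CPM in ob/ob GRf/f (51.3–57.6), and 55.6 CPM in ob/ob GRmKO muscle (52.5–58.9). The 3 higher libraries differed by at most 1.13-fold. Egr1 rose 3.60-fold in ob/ob over lean muscle of GRf/f mice (log2 ratio 1.85, 1.67 to 2.03) and 4.06-fold in GRmKO over GRf/f muscle of lean mice (log2 ratio 2.02, 1.84 to 2.21). The log2 ratio was -0.14 for ob/ob against lean GRmKO, a sign that turns under TMM and DESeq2 scaling, and 0.03 for GRmKO against GRf/f in ob/ob muscle.

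Egr3 (ENSMUSG00000033730.4; chromosome 14, 70077203 to 70082614), which is needed for the formation of muscle spindles, was at 0.773 CPM in lean GRf/f, 3.56 CPM in lean GRmKO, 1.95 CPM in ob/ob GRf/f, and 2.52 CPM in ob/ob GRmKO muscle. The lowest of these rests on 16.0 counts. Egr3 rose 2.53-fold with obesity in GRf/f mice (log2 ratio 1.34, 0.48 to 2.28) and 4.60-fold with the loss of GR in lean mice (log2 ratio 2.20, 1.41 to 3.09). The lower end of the first interval lies under 2-fold. Egr2 (ENSMUSG00000037868.15; chromosome 10, 67535475 to 67542188), known for its part in the myelination of peripheral nerve by Schwann cells, was at 3.38 CPM in lean GRf/f, 2.96 CPM in lean GRmKO, 3.10 CPM in ob/ob GRf/f, and 3.51 CPM in ob/ob GRmKO muscle. Egr2 was level across libraries, and its log2 ratios in the 4 comparisons, from -0.19 to 0.25, all had intervals that included 0. These intervals reached from -0.71 at the lowest to 0.77 at the highest, so a 2-fold difference lay outside each of them.

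Ier2 (ENSMUSG00000053560.4; chromosome 8, 84661331 to 84662852), a gene of 1 exon for a nuclear protein that acts in transcription, was at 16.1 CPM in lean GRf/f, 28.7 CPM in lean GRmKO, 17.0 CPM in ob/ob GRf/f, and 19.4 CPM in ob/ob GRmKO muscle. As with Junb, the lean GRmKO library was the highest. The log2 ratio of lean GRmKO against lean GRf/f was 0.83 (0.64 to 1.03), just under the threshold, and that of ob/ob against lean GRmKO was -0.56. Ier2 was called in no comparison.

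Nr4a1 (ENSMUSG00000023034.7; chromosome 15, 101254269 to 101274795), a nuclear receptor that regulates glucose metabolism genes in muscle, was highest where Fos and Egr1 were lowest. Nr4a1 was at 335 CPM in lean GRf/f (327–343), 187 CPM in lean GRmKO (182–194), 211 CPM in ob/ob GRf/f (204–217), and 151 CPM in ob/ob GRmKO muscle (145–156). The lean GRf/f library is the highest and none of the 4 intervals overlap. Its log2 ratio was -0.67 (-0.72 to -0.62) for ob/ob against lean GRf/f, -0.84 (-0.89 to -0.78) for GRmKO against GRf/f in lean, -0.48 in ob/ob muscle, and -0.32 (-0.39 to -0.25) for ob/ob against lean GRmKO, none of which reached 2-fold. Ratios of 2 genes within a library do not depend on its depth. Fos had 0.0336 counts for each count of Nr4a1 in lean GRf/f muscle (0.0295–0.0383), and 0.263, 0.216, and 0.432 in lean GRmKO, ob/ob GRf/f, and ob/ob GRmKO muscle. Fos per count of Egr1 was far steadier, at 0.747, 0.806, 0.835, and 1.17 in the same order.

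**Figure D2:**
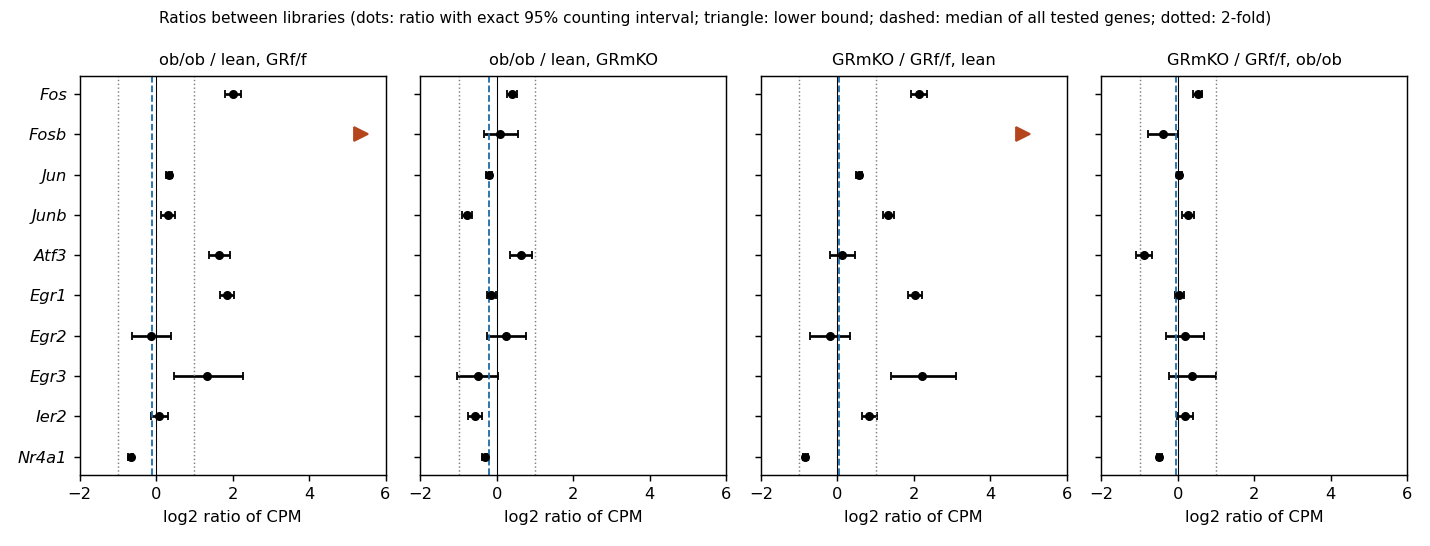
Log2 ratios of CPM (horizontal axes) of each member in the 4 comparisons, with exact 95% counting intervals, and triangles for the lower bounds of Fosb. The dashed line is the median of the 12260 genes and dotted lines mark 2-fold; members lie beyond 2-fold in the 2 comparisons that use the lean GRf/f library, 5 in each, and none in the other 2.

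Counted together, 5 of 10 members (Fos, Fosb, Egr1, Egr3, and Atf3) reached the threshold upward in the ob/ob library of GRf/f mice when set against the lean one, and 0 downward. Of the 12260 genes, 2.15% were called higher and 3.88% lower, and in that set the members called were 4 of 9, since Fosb is not in it. In GRmKO mice, 0 members were called higher and 0 lower, where 1.87% and 8.19% of all genes were. With the loss of GR in lean mice, 5 members (Fos, Fosb, Junb, Egr1, and Egr3) were called higher and 0 lower, beside 1.91% and 1.54% of all genes, or again 4 of 9 without Fosb. In ob/ob mice, 0 members were called in each direction, beside 2.04% higher and 2.77% lower of all genes. The median log2 ratio of the 9 members in the set of all genes was 0.33 against -0.11 for all genes in ob/ob against lean GRf/f muscle, and 0.83 against 0.05 in lean GRmKO against lean GRf/f muscle. In the other comparisons the medians were -0.21 against -0.20 for ob/ob against lean GRmKO, and 0.18 against -0.04 for GRmKO against GRf/f in ob/ob muscle. Scaling moved the balance of all genes, since the median of ob/ob against lean GRmKO went from -0.20 to 0.0017 under TMM and 0.011 under DESeq2, and calls that were higher went from 18.6% to 39.1% and 40.2% of all calls. For ob/ob against lean GRf/f, that share went from 35.6% to 46.9% and 47.9%. These 9 had to have counts in lean GRf/f muscle to enter the set, which Fosb did not. Lean GRf/f was the lowest library for 8 of 10 members and for 17.8% of all genes, and lean GRmKO the highest for 5 of 10 members and for 39.7% of all genes.

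The difference in the change with obesity, GRmKO minus GRf/f, was -1.61 for Fos, -1.99 for Egr1, -1.83 for Egr3, -1.08 for Junb, -1.02 for Atf3, -0.64 for Ier2, and -0.54 for Jun on the log2 scale. It was 0.35 for Nr4a1 and 0.37 for Egr2. For Fosb, set against the floor of 3 counts in lean GRf/f muscle, it was -5.26 or lower. With 1 library in each group, these differences were not tested. Each uses the lean GRf/f library, which was the lowest for 8 of 10 members. The same difference was not computed over all genes. The sum of all 10 members was nearly level, at 527 CPM in lean GRf/f, 576 CPM in lean GRmKO, 534 CPM in ob/ob GRf/f, and 496 CPM in ob/ob GRmKO muscle, because Nr4a1 is the most abundant member. Without Nr4a1 the sum was 192, 388, 324, and 346 CPM in the same order.

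Levels were compared between genes only after division by the length of the transcript listed for each. On this scale, CPM per kilobase averaged over the 4 libraries, Nr4a1 was at 89.2, Jun at 44.9, Junb at 20.7, Fos at 20.3, Egr1 at 15.3, Ier2 at 13.4, and Atf3 at 6.58, while Egr2 (1.09), Fosb (0.969), and Egr3 (0.559) were the lowest. In the Fos family, Fos made up 45.0% of the length-scaled level in lean GRf/f muscle, and 76.8%, 80.1%, and 84.8% in lean GRmKO, ob/ob GRf/f, and ob/ob GRmKO muscle. The other main subunit, Fosl2 (Fra-2), took 48.2% in lean GRf/f muscle and 16.5%, 12.6%, and 10.7% in the others. Fosl2 itself was at 37.4, 32.9, 22.2, and 25.6 CPM in this order and was called in no comparison. In the Jun family, Jund, which is expressed steadily in most tissues, held the largest share in every library, from 51.5% to 62.0%, while Junb went from 10.3% in lean GRf/f to 18.8% in lean GRmKO muscle. Egr1 made up 78.8% of the Egr family in lean GRf/f muscle and 90.9% to 92.1% in the others, and Nr4a1 made up 93.0% to 97.6% of the Nr4a family.

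**Figure D3:**
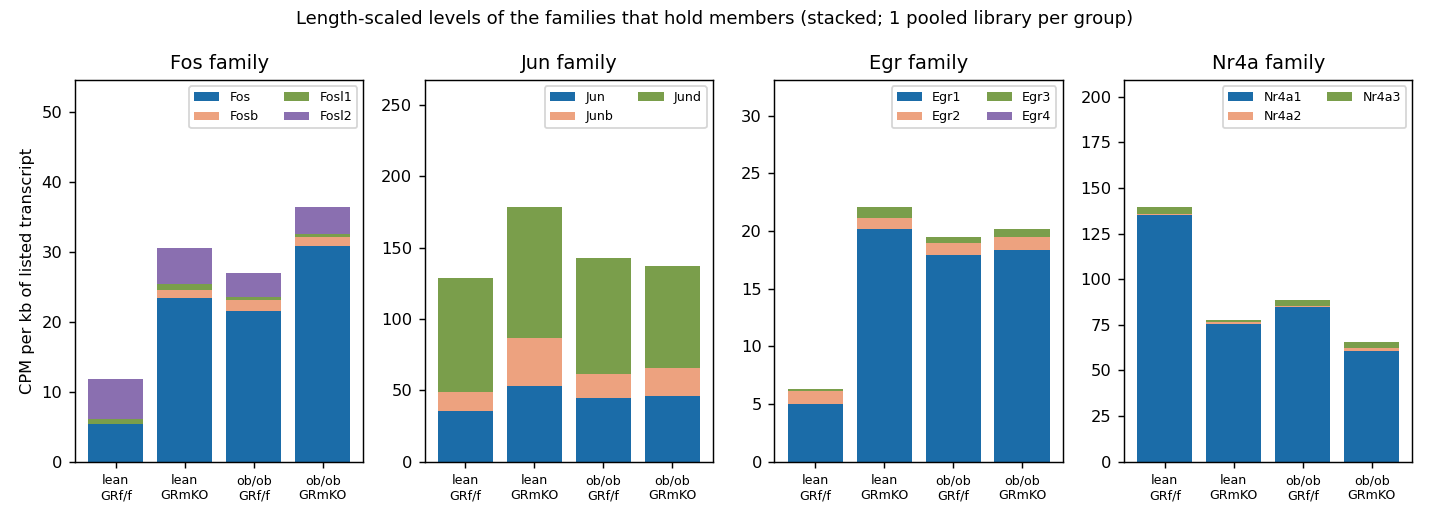
CPM per kilobase of listed transcript (vertical axes, from 0) for the Fos, Jun, Egr, and Nr4a families, stacked by gene, in the 4 libraries. In the Fos family, Fosl2 is about as tall as Fos in lean GRf/f (48.2% and 45.0%) and Fos takes 76.8% to 84.8% elsewhere; the Nr4a bar is tallest in lean GRf/f.

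Of 22 upstream kinases and factors listed, among them ERK1/2, SRF, ELK, and CREB genes, 0 were called in either comparison of ob/ob with lean muscle (beside 2.15% of all genes higher and 3.88% lower in GRf/f, and 1.87% and 8.19% in GRmKO mice), 1 was called higher with the loss of GR in lean mice (beside 1.91% of all genes), and 1 lower in ob/ob mice (beside 2.77%). Srf was at 103, 89.9, 105, and 95.7 CPM in lean GRf/f, lean GRmKO, ob/ob GRf/f, and ob/ob GRmKO muscle. Rps6ka1, which encodes the ERK-activated kinase RSK1, was the one called in lean mice, at 5.85 CPM in GRf/f and 16.2 CPM in GRmKO muscle (log2 ratio 1.47, 1.17 to 1.79). Rps6ka5, which encodes MSK1, a kinase of CREB and histone H3, fell from 12.8 CPM in ob/ob GRf/f to 6.06 CPM in ob/ob GRmKO muscle (log2 ratio -1.08). The medians of the list, between -0.05 and 0.03, are to be read beside those of all genes given above.

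Feedback regulators are themselves induced by the same signals. Of 14 phosphatases, Sprouty and Spred proteins, and Nab corepressors, 13 had a ratio above 1 and 3 were called higher in lean GRmKO over lean GRf/f muscle (list median 0.39), where 58.3% of all genes had a ratio above 1 and 1.91% were called higher. Dusp2 was at 0.337, 2.26, 0.859, and 0.859 CPM in lean GRf/f, lean GRmKO, ob/ob GRf/f, and ob/ob GRmKO muscle, the first from 7.00 counts. Its mean of 1.08 CPM passed the filter only through the lean GRmKO library. Its calls in comparisons with that library therefore rest in part on the filter. Dusp4 was at 1.45, 3.02, 2.91, and 4.05 CPM and Dusp5 at 1.16, 3.02, 2.15, and 3.43 CPM in the same order. These 3 genes encode nuclear phosphatases of MAP kinases, and each was lowest in lean GRf/f muscle, as Fos was. Their log2 ratios of lean GRmKO against lean GRf/f were 2.75 (1.59 to 4.14), 1.06 (0.41 to 1.74), and 1.38 (0.68 to 2.13). Dusp1, a MAP kinase phosphatase and a target of GR in many cells, was at 112, 147, 131, and 118 CPM and was called in no comparison. In ob/ob against lean GRf/f muscle, 2 of the 14 (Dusp2 and Dusp4) were called higher and the list median was 0.25, beside 2.15% of all genes and a median of -0.11. In ob/ob against lean GRmKO muscle, 3 of the 14 had a ratio above 1, beside 32.0% of all genes. Of the 14, 0 were called higher and 1 (Dusp2, log2 ratio -1.40) lower, beside 8.19% of all genes called lower. The list median was -0.39, beside -0.20 for all genes. Dusp2 entered the set only through lean GRmKO, the library it is set against here. In GRmKO against GRf/f of ob/ob mice, 0 were called, beside 2.04% of all genes higher and 2.77% lower. The list median there was -0.17, beside -0.04 for all genes.

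Of 14 further transcription factors in the set, 0 were called higher and 2 lower in lean GRmKO over lean GRf/f muscle. The list median was -0.06, and 1.91% of all genes were called higher and 1.54% lower, with a median of 0.05. In ob/ob over lean GRf/f muscle 0 were higher and 1 lower (median -0.44), beside 2.15% and 3.88% of all genes (median -0.11). In ob/ob against lean GRmKO muscle, 1 (Nr4a3, log2 ratio 1.51) was called higher and 0 lower, with a median of -0.24, beside 1.87% and 8.19% of all genes. In GRmKO over GRf/f muscle of ob/ob mice, 3 of them (Nr4a2, Myc, and Csrnp1) were called higher and 0 lower, beside 2.04% and 2.77% of all genes. Nr4a3, the sister receptor of Nr4a1, was at 21.4 CPM in lean GRf/f, 6.66 CPM in lean GRmKO, 16.8 CPM in ob/ob GRf/f, and 19.0 CPM in ob/ob GRmKO muscle. Nr4a3 was thus low in lean GRmKO alone, a pattern unlike that of Nr4a1. Csrnp1, an early gene named for cysteine- and serine-rich nuclear protein, fell from 7.98 CPM in lean GRf/f to 1.79 CPM in ob/ob GRf/f muscle (log2 ratio -2.15). It was at 6.97 CPM in lean GRmKO and 6.09 CPM in ob/ob GRmKO muscle, so only the ob/ob GRf/f library was low. Among 21 early genes in the set that are not transcription factors, 1 was called higher and 1 lower in lean GRmKO over lean GRf/f muscle, with a median of 0.46. The counts were 0 higher and 1 lower in ob/ob against lean GRf/f (median -0.08), 0 and 2 in ob/ob against lean GRmKO (median -0.47), and 0 and 2 in GRmKO against GRf/f of ob/ob mice (median -0.04). In the same order of comparisons, all genes called higher and lower were 1.91% and 1.54%, 2.15% and 3.88%, 1.87% and 8.19%, and 2.04% and 2.77%. The medians of all genes were 0.05, -0.11, -0.20, and -0.04. Arc, which encodes a capsid-like protein known from synapses, was not in the set because it had 0 counts in lean GRf/f muscle. It was at 2.97, 1.72, and 1.95 CPM in lean GRmKO, ob/ob GRf/f, and ob/ob GRmKO muscle, and the 95% counting intervals of the log2 ratios against lean GRf/f begin at 4.02 for lean GRmKO and 3.20 for ob/ob GRf/f muscle. Gadd45g, a stress gene of cell cycle arrest, went the other way, at 110 CPM in lean GRf/f, 22.3 CPM in lean GRmKO, 27.9 CPM in ob/ob GRf/f, and 9.52 CPM in ob/ob GRmKO muscle. Gadd45g was called lower in all 4 comparisons, with log2 ratios from -2.30 to -1.23.

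**Figure D4:**
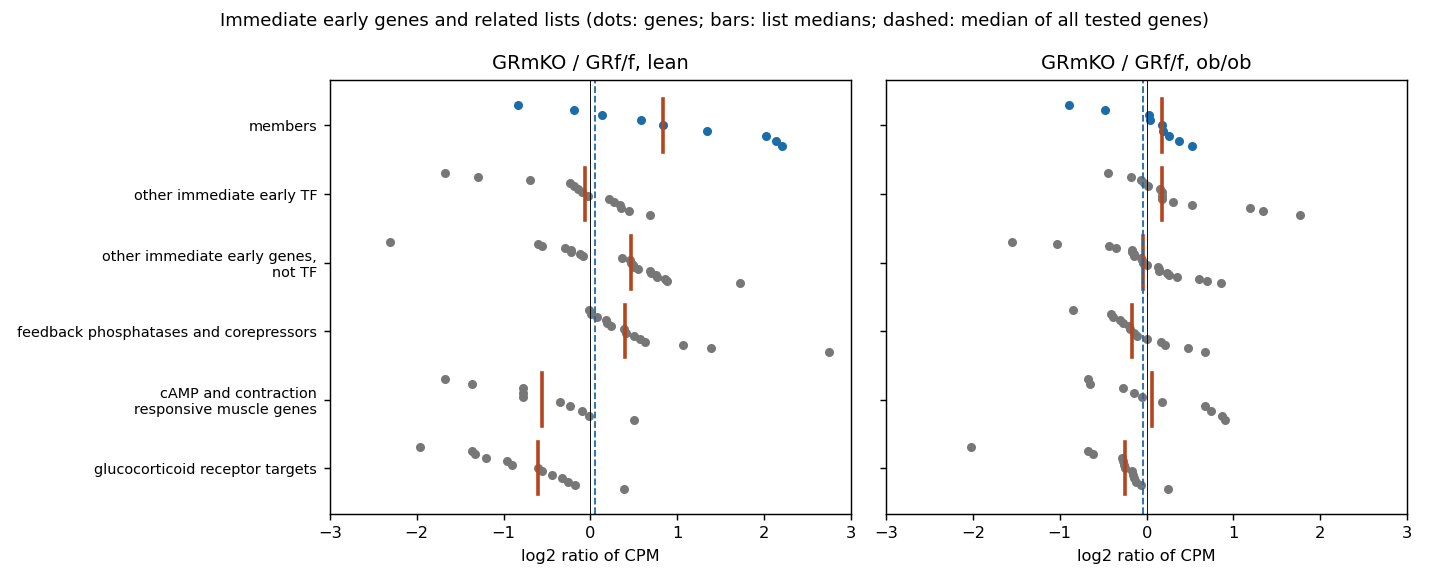
Log2 ratios of CPM (horizontal axes) of GRmKO against GRf/f in lean and in ob/ob mice, for the 9 members in the tested set and 5 further lists. Each dot is a gene, the bar is the list median, and the dashed line is the median of the 12260 genes; the members' median is 0.83 in lean and 0.18 in ob/ob mice.

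GR targets and genes of cAMP or contraction were listed because GR is deleted in GRmKO myofibers and immediate early genes respond to cAMP and contraction. Whether GR acts on the members was not tested. Of 13 GR targets, 4 were called lower and 0 higher in lean GRmKO against lean GRf/f muscle (median -0.61), beside 1.54% of all genes lower. In ob/ob mice 1 was lower and 0 higher (median -0.25), beside 2.77%. In ob/ob against lean GRf/f muscle, where GR was intact in both, 3 were lower and 0 higher (median -0.68), beside 3.88%. In ob/ob against lean GRmKO muscle 0 were called, beside 1.87% of all genes higher and 8.19% lower. The list median there was -0.25, beside -0.20 for all genes. Fkbp5, a cochaperone of GR, was at 88.8 CPM in lean GRf/f, 22.8 CPM in lean GRmKO, 106 CPM in ob/ob GRf/f, and 26.1 CPM in ob/ob GRmKO muscle. Fkbp5 was thus low in both GRmKO libraries. Of 10 genes of cAMP or contraction, Nr4a3 and Per1 were the 2 called lower with the loss of GR in lean mice, beside 1.54% of all genes (list median -0.56). In ob/ob against lean muscle, 1 was called lower in GRf/f mice (median -0.43), beside 3.88% of all genes, and 1, Nr4a3, higher in GRmKO mice (median 0.33), beside 1.87%. In GRmKO against GRf/f of ob/ob mice, 0 were called (median 0.06), beside 2.04% of all genes higher and 2.77% lower. Per1, a clock gene that is also a GR target, was at 106 CPM in lean GRf/f, 41.2 CPM in lean GRmKO, 65.9 CPM in ob/ob GRf/f, and 41.2 CPM in ob/ob GRmKO muscle and was highest in lean GRf/f muscle, as Nr4a1 was.

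Genes with the profile most like that of the members were searched among 12251 others by the distance of centered log2(CPM + 0.1) values over the 4 libraries. The nearest to the sum of the 10 members were Mpg, Zzz3, Tango6, Tfg, and Ctsb, at distances of 0.0127 to 0.0241, all nearly level as that sum is. Nearest to the sum of Fos and Egr1, a search added after the data had been seen, were Nek1 (distance 0.0974), Vps8, Exoc3l, Plekha7, and Gjb1 (0.347). Nek1, a kinase of cilia and DNA repair, was at 1.56, 6.25, 5.86, and 7.13 CPM in lean GRf/f, lean GRmKO, ob/ob GRf/f, and ob/ob GRmKO muscle. With 4 libraries, such likeness describes these values and no more.

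The libraries also differed in markers of other cells. The sum of 8 macrophage markers was 541, 675, 348, and 248 CPM in lean GRf/f, lean GRmKO, ob/ob GRf/f, and ob/ob GRmKO muscle, and that of 8 endothelial markers 553, 640, 432, and 387 CPM. Both were highest in lean GRmKO muscle, as Jun, Junb, Egr1, Egr3, and Ier2 were, and so were 7 of the 8 macrophage and 6 of the 8 endothelial markers one by one. The sum of 7 fibroblast markers was 5449, 5884, 10521, and 5698 CPM, highest in ob/ob GRf/f muscle, as Atf3 was. That sum is led by the collagens Col1a1 and Col1a2, and only 3 of the 7 markers were highest there. Dcn, Lum, and Dpt were lower in ob/ob than in lean GRf/f muscle, with log2 ratios of -0.50, -0.30, and -0.63. The sum of 5 satellite cell markers was 23.0, 29.6, 31.3, and 26.2 CPM, lowest in lean GRf/f muscle as Fos was, though over a narrower range and with 2 of the 5 markers lowest there. The sum of 6 adipocyte markers was 512, 272, 265, and 143 CPM, highest in lean GRf/f muscle as Nr4a1 was. Between the GRf/f libraries this rests on Cfd, at 267 CPM in the lean and 14.4 CPM in the obese library, while Adipoq was at 81.4 and 80.4 CPM and Lep at 14.1 and 69.6 CPM. Neutrophil markers (6 genes) summed to 22.6, 21.8, 8.05, and 4.77 CPM, erythroid markers (6) to 2229, 2127, 970.4, and 872 CPM, and smooth muscle and pericyte markers (7) to 1227, 1282, 1015, and 845 CPM. None of these markers was at 0 in any library. Their part in the values of the members was not tested.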

How the data were processed

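RNA-seq of gastrocnemius muscle was analyzed in 4 groups of 1 library each, grouped by the sample labels. Age, sex, and pooling were taken from the study's methods. Paired-end reads of 100 bp were quantified by the authors in Salmon v1.2.1, with protein-coding transcripts as reference, and brought to gene level in R v3.5.0. The deposited values are expected counts, not normalized between libraries, and each gene name carries 1 transcript ID. Counts were divided by the library total to give CPM, with no pseudocount in ratios, and rounded for intervals only (scipy 1.17.1, Python 3.11.15, pandas 2.3.3, matplotlib 3.10.9). The study called genes with NOISeq-sim, whose probability comes from simulated replicates. A fixed 2-fold threshold was used here in its place. Its check on simulated data held counting error only, with no spread between mice. That check therefore does not show how reliable a call between 2 libraries is. Scaling factors for alternatives came from edgeR 4.0.16 and DESeq2 1.42.0. Coordinates are from GENCODE M21 on GRCm38. All members were named. From each other list at most the 4 genes with the largest ratios and a mean of at least 1 CPM were named, together with Nr3c1, Fkbp5, Dusp1, Zfp36, and partners or regulators of members. Marker genes of other cells and Myc fall outside this rule and were named after their values had been seen. The members and lists were chosen with earlier results of these data known. The other tissues and models of the study were not analysed here.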

Additional observations from a re-analysis of the deposited data

Results flagged for a closer look

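Of the 10 members, 3 (Jun, Junb, and Egr1) had ratios of ob/ob to lean muscle above 1 in GRf/f and below 1 in GRmKO mice, with both counting intervals clear of 1. Egr3 and Ier2 had ratios on the same sides of 1 without meeting that limit. The share of all genes that met it was not computed. In ob/ob against lean GRmKO muscle the median log2 ratio of all genes was -0.20. Jun (-0.21) and Egr1 (-0.14) lay near that median, and Junb was at -0.77. The change with obesity in GRmKO minus that in GRf/f mice was -1.99 on the log2 scale for Egr1, -1.08 for Junb, and -0.54 for Jun. These differences were not tested, because each group has 1 library. For Egr1 the direction in GRmKO mice turned with TMM and with DESeq2 scaling, and for Jun with DESeq2 scaling.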

How the results depend on the processing

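With 1 library per group, no replicate could be left out. No paired analysis was possible because each group has 1 library. Under TMM factors, DESeq2 size factors, or library sizes that leave out the 50 most abundant genes, the counts of called members were as reported. Dropping the filter on the mean could not change these counts, because all 10 members were counted with or without it. Of the 5 called in each comparison with lean GRf/f, 4 were left with at least 10 counts in every library, a filter that leaves out Fosb, and 4 in ob/ob against lean GRf/f with 0.5 CPM added, where Egr3 fell short of 2-fold. At 1.5-fold, 1 member was called lower in each comparison (Nr4a1 in the 2 with lean GRf/f, Junb in ob/ob against lean GRmKO, and Atf3 in GRmKO against GRf/f of ob/ob mice), 1 higher in ob/ob against lean GRmKO (Atf3), and 6 rather than 5 higher in lean GRmKO against lean GRf/f (Ier2 added). The log2 ratio of the members' sum, in the order of ob/ob against lean GRf/f, ob/ob against lean GRmKO, GRmKO against GRf/f in lean, and the same in ob/ob mice, was 0.13, -0.0092, 0.072, and -0.065 under TMM, 0.14, -0.00040, 0.080, and -0.059 under DESeq2, and 0.76, -0.17, 1.02, and 0.093 without Nr4a1. Without the 50 most abundant genes it was -0.13 and -0.065 in the second and the last. Of all genes, in the same order, 483 higher and 991 lower, 484 and 1537, 586 and 506, and 575 and 709 were called with no filter on the mean, and 722 and 1603, 676 and 2634, 790 and 537, and 698 and 1157 at 1.5-fold. In ob/ob against lean GRmKO, TMM gave 383 and 596 and DESeq2 392 and 584, and with 0.5 CPM added 225 were lower in GRmKO than in GRf/f of ob/ob mice. Of 40 ratios of members, 39 kept their sign under TMM and 38 under DESeq2, all but Egr1 under both and Jun under DESeq2, each in ob/ob against lean GRmKO. The cause was not tested. The lowest counts, those of Egr3, Fosb, and Egr2, limit what depth can show.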

Other observations

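Genes of the integrated stress response, to which Atf3 also belongs, were called in both directions. Chac1, which degrades glutathione, fell from 103 CPM in lean GRf/f to 19.4 CPM in ob/ob GRf/f muscle (log2 ratio -2.41), and was at 42.6 CPM in lean GRmKO and 15.6 CPM in ob/ob GRmKO muscle. Trib3, a pseudokinase, rose from 1.78 CPM in lean GRf/f to 4.15 CPM in ob/ob GRf/f muscle and was at 2.16 and 2.19 CPM in the lean and ob/ob GRmKO libraries. Cebpb, a bZIP factor, was at 139, 65.2, 69.9, and 44.2 CPM in lean GRf/f, lean GRmKO, ob/ob GRf/f, and ob/ob GRmKO muscle. Of the 8 genes listed, 1 was called higher and 1 lower in ob/ob over lean GRf/f muscle, beside 2.15% and 3.88% of all genes. In lean GRmKO over lean GRf/f muscle 0 were higher and 2 lower, beside 1.91% and 1.54%. The counts for ob/ob against lean GRmKO muscle were 0 higher and 1 (Chac1, log2 ratio -1.45) lower, beside 1.87% and 8.19%. In GRmKO against GRf/f of ob/ob mice 0 were called, beside 2.04% and 2.77%. Of 8 heat shock genes, 0 were called in ob/ob against lean GRf/f muscle, beside 2.15% of all genes higher and 3.88% lower. In lean GRmKO against lean GRf/f muscle 0 were called as well, beside 1.91% and 1.54%. Hsph1, a chaperone of the HSP110 family, was the only one called in the others, at 10.4 CPM in ob/ob GRmKO muscle against 26.9 CPM in lean GRmKO and 21.2 CPM in ob/ob GRf/f muscle, where 8.19% and 2.77% of all genes were called lower.

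Ccl2, a chemokine that is induced early by inflammatory signals, was at 1.25, 4.11, 1.67, and 2.54 CPM in lean GRf/f, lean GRmKO, ob/ob GRf/f, and ob/ob GRmKO muscle and was called higher in lean GRmKO over lean GRf/f muscle (log2 ratio 1.72). Zfp36, which encodes a protein that promotes the decay of early gene mRNAs, was at 26.1 CPM in lean GRf/f, 33.7 CPM in lean GRmKO, and 20.7 CPM in ob/ob GRf/f muscle, had a log2 ratio of -0.06 in GRmKO against GRf/f of ob/ob mice, and was called in no comparison. Fosl1, an AP-1 subunit at 1.49, 1.71, 0.763, and 0.811 CPM, was the only one of the 10 other AP-1 and Maf genes in the set to be called, lower in ob/ob than in lean GRmKO muscle, beside 8.19% of all genes. Its mean of 1.19 CPM passed the filter only through the lean libraries, so this call rests in part on the filter.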
